A study of Mus musculus with 26 samples.

Results

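The 6 rarely used heavy-chain V genes of the mouse IGHV1 family described here were IGHV1-11, IGHV1-20, IGHV1-21, IGHV1-34, IGHV1-36 and IGHV1-37. They were chosen by their low share of clonotypes in these same data, so their low use is a description and not a result. They are 6 of the 59 IGHV1 genes and of the 188 V genes found in the series. A clonotype is a V gene, a J gene and a junction nucleotide sequence within 1 biological replicate, and the 6 genes held 15035 of 1674869 clonotypes. Spleen held 9524 of these, lymph node 2852, the positive control 2655 and skin 4. The spleen, lymph node and skin libraries came from wild-type (WT) B cells of mice associated with *Staphylococcus epidermidis*, a skin commensal, with 4 biological replicates per tissue and 2 technical libraries per replicate. The positive control was WT B cells in 1 replicate of 2 technical libraries, with no association or treatment stated. Tissue was taken from the library titles, since the tissue field reads ear skin for spleen and lymph node too. Which animals gave which replicates is not stated, so p-values measure the spread between these samples.

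A heavy-chain variable domain is assembled in each developing B cell by joining a V, a D and a J segment, and the joint forms the third complementarity-determining region (CDR3), the most variable part of the binding site. IGHV1 is the largest V family of the mouse, and its members are used very unequally. In germinal centres the assembled V segment acquires point mutations, and the constant region is switched from IgM and IgD to IgG, IgA or IgE. Here a V mismatch is a base that differs from the assigned germline allele, which includes mutation and any germline or assignment difference.

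RefSeq places all 6 genes on chromosome 12 (GRCm38, the build named mm10 in the submitters' processing notes). IGHV1-11 spans 114612244 to 114612536, IGHV1-20 spans 114723772 to 114724065, and IGHV1-21 spans 114740383 to 114740840. IGHV1-34 spans 114851190 to 114851483, IGHV1-36 spans 114879888 to 114880181, and IGHV1-37 spans 114896238 to 114896531. RefSeq lists IGHV1-21 as a V segment pseudogene and the other 5 as V segments.

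The aligned V part of the deposited sequences was 144 bases long in full, and the following are the V parts carried by clonotypes without a mismatch. They are shown because the later results turn on how closely the genes resemble each other. Capitals mark the bases that differ from IGHV1-26, the most used IGHV1 gene, and in IGHV1-37 the bases that differ from IGHV1-20.
IGHV1-26: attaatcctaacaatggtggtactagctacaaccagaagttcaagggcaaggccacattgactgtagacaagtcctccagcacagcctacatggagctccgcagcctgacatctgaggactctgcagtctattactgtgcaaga
IGHV1-11: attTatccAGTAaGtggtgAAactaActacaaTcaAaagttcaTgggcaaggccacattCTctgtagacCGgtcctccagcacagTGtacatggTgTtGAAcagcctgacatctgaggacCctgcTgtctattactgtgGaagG
IGHV1-34: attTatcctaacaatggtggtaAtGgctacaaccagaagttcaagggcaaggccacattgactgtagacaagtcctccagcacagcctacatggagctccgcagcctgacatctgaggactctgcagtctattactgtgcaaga
IGHV1-36: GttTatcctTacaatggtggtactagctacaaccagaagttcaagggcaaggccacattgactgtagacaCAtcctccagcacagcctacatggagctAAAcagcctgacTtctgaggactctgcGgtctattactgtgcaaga
IGHV1-21: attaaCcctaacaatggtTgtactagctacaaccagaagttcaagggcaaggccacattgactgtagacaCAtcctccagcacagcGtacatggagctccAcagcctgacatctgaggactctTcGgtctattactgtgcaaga
IGHV1-20: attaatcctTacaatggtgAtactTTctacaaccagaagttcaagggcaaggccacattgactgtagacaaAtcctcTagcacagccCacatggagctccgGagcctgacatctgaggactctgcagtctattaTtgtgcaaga
IGHV1-37: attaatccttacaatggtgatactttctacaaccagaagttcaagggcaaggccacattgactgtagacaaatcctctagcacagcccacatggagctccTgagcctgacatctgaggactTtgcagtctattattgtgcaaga

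Of the 6 genes, IGHV1-11 stood furthest from IGHV1-26, with 27 differences over the 144 bases. Over the 137 bases that all aligned clonotypes of the 6 genes covered, its nearest neighbours were IGHV1-25 and an allele of IGHV1-84, at 23 differences each. IGHV1-34 lay 3 differences from IGHV1-26, and IGHV1-21 lay 7 from IGHV1-25 and 8 from IGHV1-26. IGHV1-36 lay 9 differences from IGHV1-19 and from IGHV1-25. IGHV1-20 and IGHV1-37 formed the closest pair, with 2 differences, G101T and C122T, counted from 1 at the first base printed and given as IGHV1-20 base, position, IGHV1-37 base.

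The spleen replicates held 25645 to 438995 clonotypes, the lymph node replicates 27520 to 117561, the skin replicates 275 to 350 and the positive control 386982. Counts are called copies here, and neither labels nor headers state whether they are molecular identifiers or reads. The 6 genes together made up 1.07%, 0.786%, 0.838% and 1.29% of clonotypes in spleen replicates 1 to 4, and 0.970%, 0.978%, 0.986% and 0.956% in lymph node replicates 1 to 4. The control share was 0.686%.

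Rarely used is a relative term for these genes. Over the 8 spleen and lymph node replicates, 14 other IGHV1 genes had a lower mean share than any of the 6, 6 others lay among them, and 33 others lay above. Of the 14, RefSeq lists 3 as pseudogenes and 11 as V segments. The 3 lowest were IGHV1-28 and IGHV1-71, with no clonotype in spleen or lymph node, and IGHV1-23. The other IGHV1 genes had a median share of 0.715%, and IGHV1-26 averaged 8.58%.

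**Figure D1:**
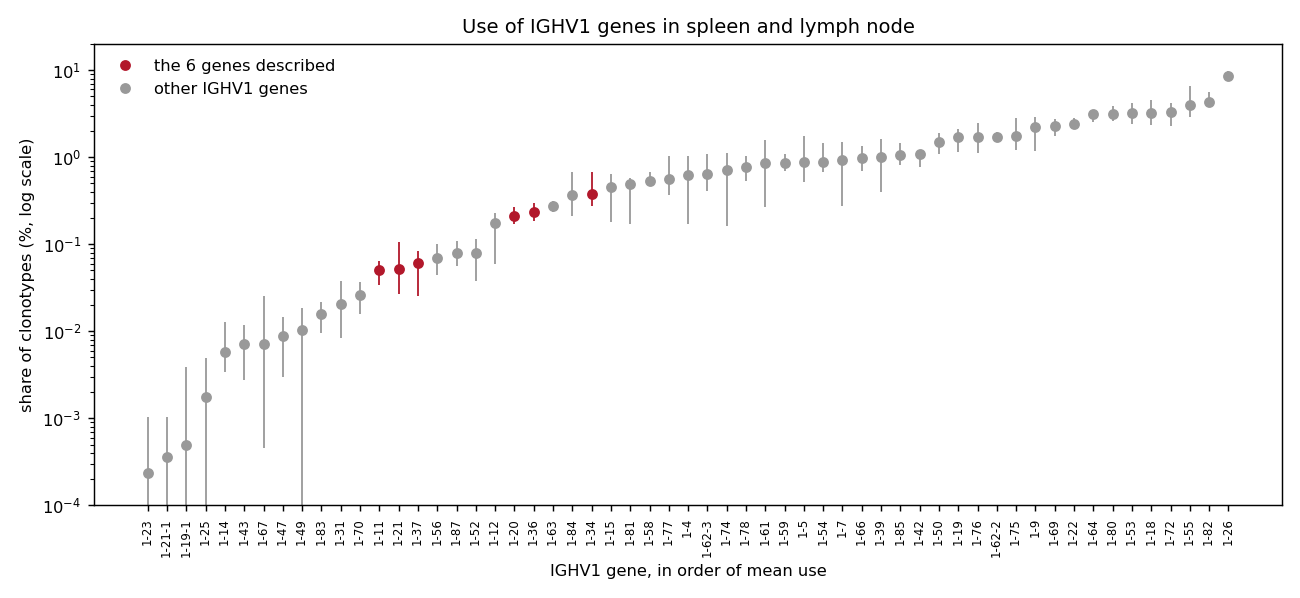
Mean share of clonotypes over 4 spleen and 4 lymph node replicates (points, percent, log scale) for each IGHV1 gene with any clonotype there, with lines from the lowest to the highest replicate. Lines that reach the bottom of the axis include a replicate at 0, and the 2 genes at 0 in all 8 replicates are not drawn. The 6 genes described, in red, lie between 0.0507% and 0.377%, above 12 of the genes drawn.

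IGHV1-34 was the most used of the 6. It made up 0.425%, 0.273%, 0.281% and 0.684% of clonotypes in the spleen replicates, against 0.374%, 0.319%, 0.333% and 0.328% in the lymph node replicates. Spleen replicate 4 was the highest, and the tissues overlapped. IGHV1-36 followed with 0.213% ± 0.0204 of spleen and 0.256% ± 0.0273 of lymph node clonotypes (SD, n = 4 each), and IGHV1-20 with 0.191% ± 0.0147 of spleen and 0.226% ± 0.0424 of lymph node clonotypes. These 2 neighbours in the order overlapped in both tissues.

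The other 3 genes lay several-fold lower and also overlapped each other. IGHV1-37 made up 0.0580% ± 0.00443 of spleen and 0.0645% ± 0.0265 of lymph node clonotypes (SD, n = 4 each). IGHV1-21 made up 0.105%, 0.0524%, 0.0433% and 0.0519% of spleen clonotypes, against 0.0472%, 0.0493%, 0.0268% and 0.0364% of lymph node clonotypes. IGHV1-11 made up 0.0624%, 0.0339%, 0.0643% and 0.0538% of spleen clonotypes, against 0.0581%, 0.0476%, 0.0383% and 0.0468% of lymph node clonotypes. With 16 clonotypes in spleen replicate 1 and 16 in lymph node replicate 1, IGHV1-11 was counted thinly there.

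None of the 6 genes passed for use between spleen and lymph node in edgeR's quasi-likelihood test on clonotype counts, where 22.0% of the 91 V genes tested passed. On the log2 scale, spleen over lymph node gave 0.59 for IGHV1-21 (edgeR adjusted p = 0.309, 95% interval -0.22 to 1.41) and 0.32 for IGHV1-34 (edgeR adjusted p = 0.546, interval -0.41 to 1.04). IGHV1-36 had -0.25 (edgeR adjusted p = 0.546, interval -0.83 to 0.33). Its spleen replicates ran from 0.186% to 0.234% and its lymph node replicates from 0.236% to 0.294%, so the ranges nearly touched. How many of the 91 V genes separate in this way was not counted, so no tissue difference is read from it. IGHV1-20 had -0.24 (interval -0.85 to 0.38), and IGHV1-37 had -0.19 (interval -0.92 to 0.53). IGHV1-11 had 0.15, with the widest interval, -1.47 to 1.78. The median over the 6 was -0.02, against -0.12 over all V genes tested. Of the 40 other IGHV1 genes tested, 2 were higher and 6 lower in spleen.

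Across the 8 spleen and lymph node replicates, the V genes whose log2-scaled clonotype use ran most like each member were as follows, as a description over samples that share depth and tissue. IGHV1-21 ran most like IGHV1-82 (Pearson r 0.93) and IGHV1-85 (0.91), and IGHV1-11 most like IGHV1-56 (0.90) and IGHV1-72 (0.89). IGHV1-36 ran most like IGHV1-12 (0.83) and IGHV1-81 (0.81), and IGHV1-34 most like IGHV1-62-2 (0.76) and IGHV1-72 (0.70). IGHV1-20 ran most like IGHV1-50 (0.64) and IGHV1-12 (0.58). IGHV1-37 had no close match, with IGHV12-3 (0.35) and IGHV1-69 (0.30) at the top.

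**Figure D2:**
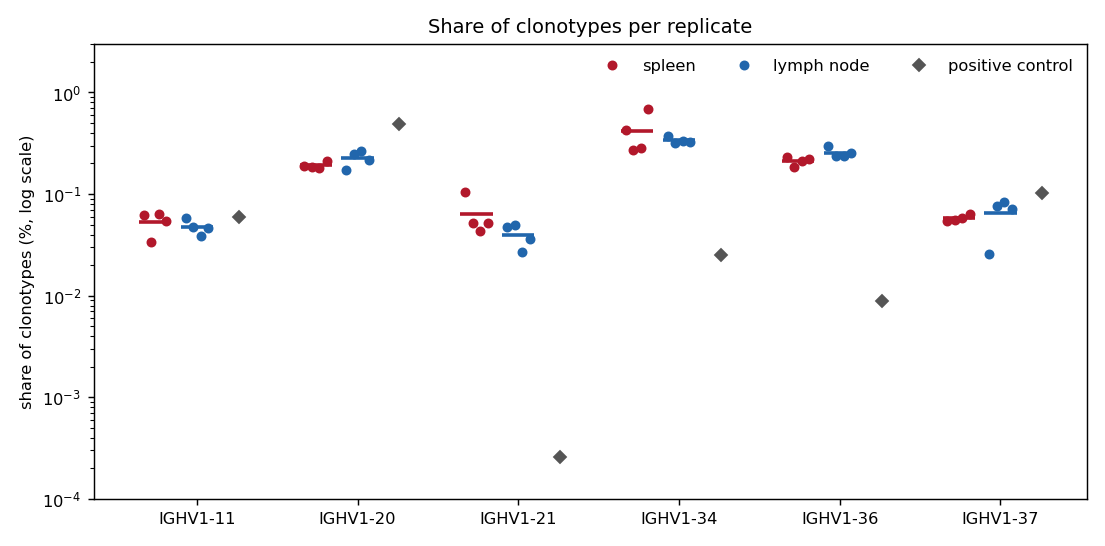
Share of clonotypes (percent, log scale) of the 6 genes in each spleen replicate (red), lymph node replicate (blue) and the positive control (grey diamond), with lines at the tissue means of 4 replicates. Spleen and lymph node overlap for every gene except IGHV1-36, whose ranges nearly touch, at 0.234% in spleen and 0.236% in lymph node. The control value of IGHV1-21, 0.000258%, lies far below both tissues.

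The positive control used the 6 genes in another order. IGHV1-20 was the most used there, with 1899 clonotypes or 0.491% (exact Clopper-Pearson 95% interval 0.469% to 0.513%), followed by IGHV1-37 with 393 or 0.102% (0.0918% to 0.112%). IGHV1-11 had 230 clonotypes, 0.0594%, inside its range in spleen. IGHV1-34 had 98 clonotypes, 0.0253%, IGHV1-36 had 34, 0.00879%, and IGHV1-21 had 1 clonotype. The last 3 were below every spleen and lymph node replicate. The control is 1 sample, so these differences have no replicate check, and such intervals cover counting error only.

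The 4 skin replicates held 3 clonotypes of IGHV1-20, with 43 copies, and 1 of IGHV1-21, with 1 copy, among 1267 clonotypes. IGHV1-11, IGHV1-34, IGHV1-36 and IGHV1-37 had 0 of 1267, which allows a share of up to 0.237%. That limit is above the spleen mean of IGHV1-11, IGHV1-36 and IGHV1-37, so this depth could not have shown a lower use in skin than in spleen. It is also above the lymph node means of IGHV1-11 and IGHV1-37. The lymph node mean of IGHV1-36, 0.256%, lies above the limit, with replicates from 0.236% to 0.294% on both sides of it. For IGHV1-34 the limit is below its lowest spleen and lymph node shares, 0.273% and 0.319%, with counting error alone considered.

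IGHV1-21 was set apart by its V mismatches. Its clonotypes carried a mismatch in 4.96%, 5.20%, 5.49% and 4.98% of V bases in the spleen replicates, and in 4.17%, 4.42%, 4.53% and 5.05% in the lymph node replicates. The median V gene had 0.620% in spleen and 0.429% in lymph node, averaged over replicates. IGHV1-21 exceeded the median V gene by 4.33 percentage points (limma adjusted p = 7.78e-09, 95% interval 4.06 to 4.59), in 8 of 8 replicates, and ranked 2 of the 82 V genes with at least 10 clonotypes in each replicate. In that test 36.6% of V genes passed as higher and 35.4% as lower. Clonotypes without any mismatch made up 3.91% of IGHV1-21 in spleen and 2.50% in lymph node, against 63.9% and 69.7% for the other IGHV1 genes in the same tissues.

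Some mismatches recurred in most IGHV1-21 clonotypes. Counted from 1 at the first base printed above and with the IGHV1-21 base given before the position, T124G was present in 93.9% and T19G in 89.1% of IGHV1-21 clonotypes in spleen, and in 95.0% and 94.2% in lymph node. Both substitutions return the IGHV1-21 base to that of IGHV1-26, which differs from IGHV1-21 at these positions by G19T and G124T. The printed segments of the other members carry the IGHV1-26 base at both positions too, so these substitutions do not single out IGHV1-26. A134T was present in 55.5% of spleen and 53.3% of lymph node clonotypes, in all 4 replicates of each tissue.

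When each clonotype's most copied sequence was compared with 58 reference alleles of the family, IGHV1-21 was the nearest gene for 43.9% of its spleen clonotypes. Another gene tied for 27.0% and was nearer for 29.1%. In lymph node the shares were 36.7% nearest, 41.7% tied and 21.7% nearer to another gene. For IGHV1-11, IGHV1-20, IGHV1-34, IGHV1-36 and IGHV1-37 the assigned gene was nearest for 94.8% to 100% of clonotypes in spleen and lymph node.

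IGHV1-21 clonotypes were also thinly sampled. They averaged 1.15 copies in spleen and 1.10 in lymph node, against 2.66 and 2.08 for the other IGHV1 genes. In spleen 3.13% and in lymph node 0.833% were found in both technical libraries, against 5.48% and 4.93% for the other IGHV1 genes. None of its 633 junctions in spleen, lymph node and control occurred in more than 1 replicate. The part of gene assignment in its mismatches was not tested.

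IGHV1-11 lay below the median V gene, with 0.174%, 0.634%, 0.210% and 0.201% of V bases mismatched in the spleen replicates and 0.0868%, 0.189%, 0.104% and 0.0931% in the lymph node replicates. The difference from the median V gene was -0.31 percentage points (limma adjusted p = 0.00213, below in 8 of 8 replicates). IGHV1-20 lay 0.16 points above the median V gene (limma adjusted p = 0.0455), a call that was lost when 6 of the 8 replicates were left out in turn and with a replicate block (adjusted p = 0.0664). IGHV1-36 differed by 0.18 points (limma adjusted p = 0.0577) and IGHV1-34 by 0.40 points (limma adjusted p = 0.0974). IGHV1-36 passed in 3 alternative settings (limma adjusted p as low as 0.0137, with lineages in place of clonotypes), and IGHV1-34 passed without spleen replicate 3 (limma adjusted p = 0.0373). IGHV1-37 had only 7 clonotypes in lymph node replicate 1 and was not tested at the minimum of 10. At a minimum of 5, added after seeing the data, it lay -0.32 points from the median V gene (limma adjusted p = 0.00394).

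No V gene passed for V mutation between spleen and lymph node by limma, with 0 of 82 passing (0%), 19 at an unadjusted p under 0.05, and 0 to 5 when a replicate was left out. All 5 members tested had a higher mean in spleen, as did every V gene tested except IGHV1-56 and IGHV2-9. The median difference over all V genes was 0.19 points. IGHV1-34 differed by 0.89 points (limma adjusted p = 0.185) and IGHV1-21 by 0.61 points (limma adjusted p = 0.161). IGHV1-11, IGHV1-36 and IGHV1-20 differed by 0.19, 0.21 and 0.07 points.

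**Figure D3:**
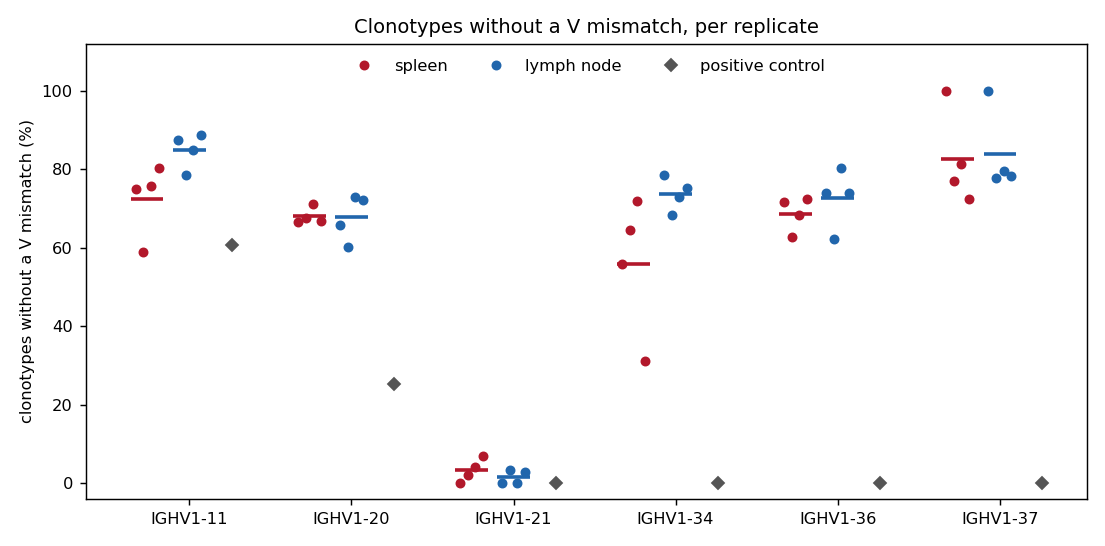
Share of clonotypes without a V mismatch (percent) for the 6 genes in each spleen replicate (red), lymph node replicate (blue) and the positive control (grey diamond), with lines at the tissue means of 4 replicates. IGHV1-21 stays below 7% everywhere, and in the control IGHV1-34, IGHV1-36 and IGHV1-37 are at 0.

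In the positive control, IGHV1-37 had 0 of 393 clonotypes without a mismatch, which allows up to 0.763%, against 77.0% in spleen and 79.0% in lymph node. With the germline base first, T122C was present in 99.7% and C140G in 78.4% of its control clonotypes. T122C restores the IGHV1-20 base at that position, and 99.2% of the control clonotypes were equally near to IGHV1-20. The commonest IGHV1-37 segment in the control is shown with capitals at its 2 differences from the IGHV1-37 segment above, and 144 of 223 clonotypes aligned in full carried it. The commonest control segment of IGHV1-20, carried by 435 of 1319, is shown with capitals at its differences from IGHV1-20.
IGHV1-37 in the control: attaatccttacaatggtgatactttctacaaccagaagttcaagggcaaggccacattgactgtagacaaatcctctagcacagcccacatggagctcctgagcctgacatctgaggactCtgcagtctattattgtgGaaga
IGHV1-20 in the control: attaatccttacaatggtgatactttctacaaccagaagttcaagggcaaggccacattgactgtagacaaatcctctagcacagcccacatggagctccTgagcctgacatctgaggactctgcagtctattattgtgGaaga

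Apart from the capitals, these 2 control segments are the same 144 bases, with 0 bases different, so in the control 1 sequence was assigned in part to IGHV1-20 and in part to IGHV1-37. Of the control's IGHV1-20 clonotypes, 56.6% were equally near to another gene, mostly IGHV1-37, against 0.470% in spleen and 1.02% in lymph node. The allele IGHV1-20*02 was assigned to 657 of 1899 clonotypes in the control, against 4 of 1914 in spleen and 1 of 688 in lymph node. Shares of IGHV1-20 and IGHV1-37 in the control are therefore uncertain between the 2 genes.

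IGHV1-34 and IGHV1-36 also had no clonotype without a mismatch in the control, with 0 of 98 and 0 of 34, which allows up to 3.06% and 8.82%. Every IGHV1-36 clonotype of the control carried A99C, and 55.9% were nearer to another gene than to IGHV1-36. For IGHV1-34 that share was 53.1%, against 2.14% in spleen and 1.86% in lymph node. IGHV1-11 differed from these, with 60.9% of its control clonotypes free of mismatches and all of them nearest to IGHV1-11. Members were not alone in this: 27 of the 43 IGHV1 genes with at least 10 clonotypes in control and spleen had 0% without a mismatch in the control, against 1 of 43 in spleen. The germline background of the control is not stated, and its part in these values was not tested.

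IGHV1-11 was set apart by its short CDR3. Its mean CDR3 length was 10.4, 9.95, 10.9 and 10.7 residues in the spleen replicates and 10.2, 10.7, 10.95 and 10.9 in the lymph node replicates, where the median V gene averaged 12.1 in spleen and 12.3 in lymph node. The difference was -1.63 residues (limma adjusted p = 4.65e-06, 95% interval -1.91 to -1.34), below the median V gene in 8 of 8 replicates. In that test 36.6% of V genes passed as longer and 32.9% as shorter. None of the other 4 members tested passed. IGHV1-20 differed by 0.21 residues (limma adjusted p = 0.121, interval -0.04 to 0.46) and passed in 3 alternative settings (adjusted p as low as 0.0322, without lymph node replicate 2), and IGHV1-21, IGHV1-34 and IGHV1-36 by 0.05, -0.00083 and -0.10.

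A CDR3 of exactly 8 residues was the most frequent class behind this. It made up 56.3%, 37.6%, 25.0% and 28.7% of IGHV1-11 clonotypes in the spleen replicates and 31.3%, 14.3%, 25.0% and 28.9% in the lymph node replicates. In the positive control it was 66.5%, or 153 of 230 clonotypes. Groups of similar clonotypes made up part of these shares. A single IGHJ2 lineage, a group of clonotypes alike in V gene, J gene and CDR3 length with CDR3s linked at 85% or more identical bases, held 105 of the control clonotypes, or 45.7% of all IGHV1-11 clonotypes there. In spleen replicate 2, lineages of 21 and 15 clonotypes made up part of the 56 with this CDR3 length. Linkage passes from clonotype to clonotype, so clonotypes of a lineage can be less alike than 85%. Whether the clonotypes of a lineage share a cell of origin was not tested. The median V gene had 3.92% in spleen and 3.55% in lymph node, and IGHV1-11 ranked 1 of 82 V genes in each of the 8 replicates and 1 of 79 in the control. This class was singled out after its values were seen, so it is given without a test.

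IGHV1-11 was joined to IGHJ3 rarely. IGHJ3 made up 0%, 3.36%, 2.08% and 3.66% of its spleen clonotypes, where the median V gene lay between 10.8% and 16.3%, and IGHV1-11 ranked 81 or 82 of 82 in every spleen replicate. In lymph node the shares were 0%, 1.79%, 10.0% and 2.22%, of which the 10.0% rests on 20 clonotypes. IGHJ4 made up 47.8% and IGHJ2 38.3% of its spleen clonotypes pooled over replicates, against 31.6% and 35.5% for the other IGHV1 genes. In the control IGHJ2 led with 59.1%. The other 5 members had IGHJ3 in 8.62% to 15.2% of pooled spleen clonotypes, with 13.3% for the other IGHV1 genes.

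Some IGHV1-11 junctions came up in more than 1 replicate. Of its 815 junctions in spleen, lymph node and control, 17 occurred in at least 2 replicates and 5 in at least 3. The 17 make up 2.09% of its junctions, while the other 39 IGHV1 genes had a median of 1.10% and a highest value of 2.50%. The 5 make up 0.613% of its junctions, against a median of 0.0830% and a highest value of 0.426% for the same genes. The 5 junctions follow, with capitals for the leading bases that match the end of the IGHV1-11 segment, and each encodes a CDR3 of 8 residues.
IGHV1-11 with IGHJ4: TGTGGAAGGggctatgctatggactactgg
IGHV1-11 with IGHJ1: TGTGGAAGGggggagtacttcgatgtctgg
IGHV1-11 with IGHJ2, a: TGTGGAAGGggggaactgtttgactactgg
IGHV1-11 with IGHJ2, b: TGTGGAAGGggggagtactttgactactgg
IGHV1-11 with IGHJ2, c: TGTGGAAGGggggaactatttgactactgg

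The IGHJ4 junction was found in 5 replicates, spleen 2, 3 and 4 and lymph node 1 and 4, with 8 copies in all, 7 of them IgM. The IGHJ1 junction was found in spleen 1 and 3, lymph node 1 and the control, with 145 copies, of which 49 were IgG3. Junction a had 107 copies in spleen 1, lymph node 1 and the control, of which 102 were IgG3. Junction b had 70 copies in spleen 2, spleen 3 and the control, with 35 IgG3 and 27 IgA. Junction c had 27 copies in spleen 4, lymph node 4 and the control. Some of these are same-numbered spleen and lymph node replicates, and whether these came from the same animals is not stated.

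IGHV1-11 also carried more IgG3 than other V genes in spleen. IgG3 is the mouse IgG subclass best known from responses to carbohydrate antigens that need little T cell help. A clonotype with at least 1 IgG3 copy was found among 5 of 16, 14 of 149, 4 of 144 and 7 of 164 IGHV1-11 clonotypes in the spleen replicates, or 31.3%, 9.40%, 2.78% and 4.27%. In the lymph node replicates it was 3 of 16, 0 of 56, 0 of 20 and 2 of 45, and in the control 6 of 230, or 2.61%. The median V gene had 0.323% in spleen and 0.0494% in lymph node, averaged over replicates.

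IGHV1-11 had the highest IgG3 share of the 82 V genes in 4 of 4 spleen replicates, by clonotypes and by copies. In lymph node it ranked 1 by clonotypes in replicates 1 and 4 and had none in the other 2, and in the control it ranked 47 of 79. By copies, IgG3 made up 49.5%, 19.1%, 9.01% and 36.5% of IGHV1-11 in the spleen replicates, and 50.8%, 0%, 0% and 3.39% in the lymph node replicates. These copy shares rest on few groups of similar clonotypes. In spleen replicates 2 and 4 most IgG3 copies of IGHV1-11 lay in 1 lineage each, as given with the large lineages below. Junction a alone held 102 IgG3 copies in spleen 1, lymph node 1 and the control, where IGHV1-11 had 91, 62 and 7 in all. IGHV1-11 clonotypes with an IgG3 copy averaged 11.9% over the 4 spleen replicates, and the next V gene was IGHV1-20 with 1.41%. Both means rest largely on spleen replicate 1, with 16 clonotypes of IGHV1-11 and 48 of IGHV1-20. Without that replicate, a setting chosen after seeing the data, IGHV1-11 averaged 5.48% and ranked 1, IGHV8-5 was next with 0.879%, and IGHV1-20 averaged 0.491% and ranked 36. This pattern was also noticed in the data and is given without a test.

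The IgG3 copies lay almost wholly in the clonotypes with the 8-residue CDR3. They held 381 of 390 IgG3 copies of IGHV1-11 in spleen, 64 of 64 in lymph node and 7 of 7 in the control. Counted by clonotypes with an IgG3 copy, the share in spleen was lower, at 24 of 30, with 8 of 14 in spleen replicate 2. It was 5 of 5 in lymph node and 6 of 6 in the control. In spleen 16.2% of the 8-residue clonotypes of IGHV1-11 had an IgG3 copy, against 1.85% of its other clonotypes. Over all 82 V genes an IgG3 copy was found in 0.604% of 8-residue clonotypes against 0.550% of the others in spleen, 0.348% against 0.138% in lymph node, and 1.97% against 3.40% in the control. IGHV1-11 supplied 390 of the 14708 IgG3 copies in spleen, or 2.65%.

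**Figure D4:**
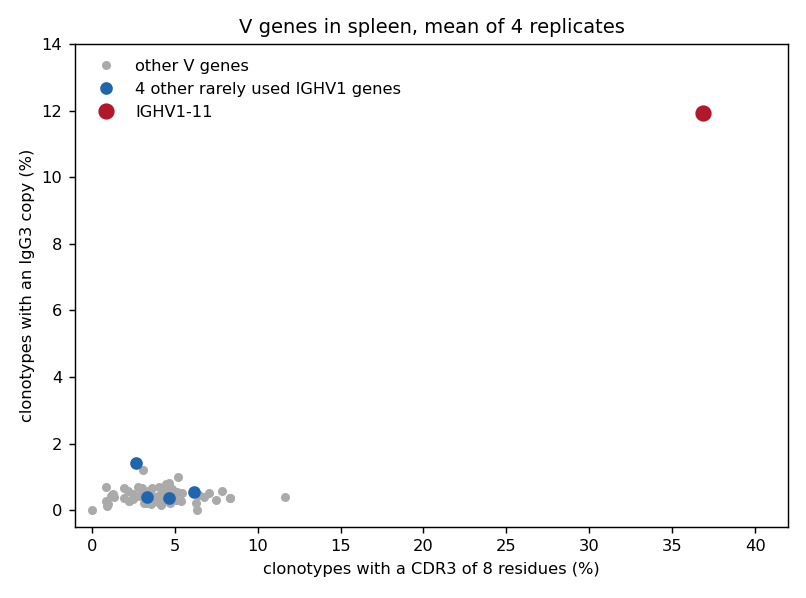
Share of clonotypes with an IgG3 copy (percent) against the share with a CDR3 of 8 residues (percent), 1 point for each of the 82 V genes, as means of 4 spleen replicates. IGHV1-11 (red) lies at 36.9% and 11.9% (5.48% with an IgG3 copy without spleen replicate 1), and the next highest V gene on the CDR3 axis at 11.6%. IGHV1-37 is not drawn, because it had fewer than 10 clonotypes in a lymph node replicate.

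Over all isotypes, none of the 5 members tested passed against the median V gene for its share of clonotypes with an IgG, IgA or IgE copy, where limma called 8.54% of V genes higher and 4.88% lower. IGHV1-11 differed by 4.81 percentage points (limma adjusted p = 0.154, 95% interval -0.41 to 10.02), IGHV1-34 by 3.62 (adjusted p = 0.138) and IGHV1-21 by 3.59 (adjusted p = 0.129). IGHV1-20 differed by 2.20 points and IGHV1-36 by -0.68 points. Spleen replicate 1, the shallowest spleen, had the highest switched share for IGHV1-11, IGHV1-20, IGHV1-34 and IGHV1-37. The median V gene also varied between spleen replicates, from 5.94% to 17.6%, so this is not read as a trait of the members.

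Among the copies of IGHV1-34, the mucosal class IgA made up 44.4%, 22.8%, 8.08% and 86.3% in the spleen replicates, and 0%, 0.581%, 0% and 2.39% in the lymph node replicates. All spleen replicates lay above all lymph node replicates, as for the median V gene, which had 19.0% in spleen and 0.356% in lymph node. The high value of spleen replicate 4 came with a large share of copies. IGHV1-34 made up 0.296%, 0.149%, 0.184% and 2.17% of all copies in the spleen replicates, and 0.318%, 0.226%, 0.257% and 0.212% in the lymph node replicates.

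In spleen replicate 4 an IGHV1-34 lineage with IGHJ2 held 12241 copies in 168 clonotypes. These were 81.3% of the IGHV1-34 copies and 1.76% of all copies there. The lineage was linked from clonotype to clonotype, so it may join clonotypes of more than 1 cell of origin, which was not tested. IgA made up 99.95% of the copies of the lineage, and 73 of its clonotypes were found in both technical libraries. Its CDR3 had 10 residues, and the junctions of its 3 largest clonotypes follow, with capitals for the leading bases that match the end of the IGHV1-34 segment.
IGHV1-34 with 5329 copies: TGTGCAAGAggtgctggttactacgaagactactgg
IGHV1-34 with 2809 copies: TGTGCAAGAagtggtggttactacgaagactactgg
IGHV1-34 with 2522 copies: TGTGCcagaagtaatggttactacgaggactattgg

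All copies of these 3 clonotypes were IgA. Lineage members carried T28A in 47.0% and T9A in 38.7% of clonotypes (79 and 65), counted as above, and 1.79% had no V mismatch. Neither substitution was particular to the lineage. Among the 3946 spleen clonotypes of IGHV1-34*01, 830 carried T28A, in 2 replicates, and 613 carried T9A, in 1 replicate. Clonotypes outside the lineage in spleen replicate 4 therefore carried T9A too, so the rest of the gene there was not free of the lineage's substitutions. The mean mismatch was 2.92% of V bases in the lineage and 2.47% in the rest of IGHV1-34 in that replicate, where 33.8% of clonotypes had none. Without the lineage, IGHV1-34 still made up 0.630% of clonotypes and 0.414% of copies in spleen replicate 4, both above the other 3 spleen replicates. The largest IGHV1-34 lineage held 27.9% of the gene's copies in spleen replicate 1, 14.2% in spleen replicate 2 and 2.73% in spleen replicate 3, and 1.55% to 4.05% in the lymph node replicates.

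**Figure D5:**
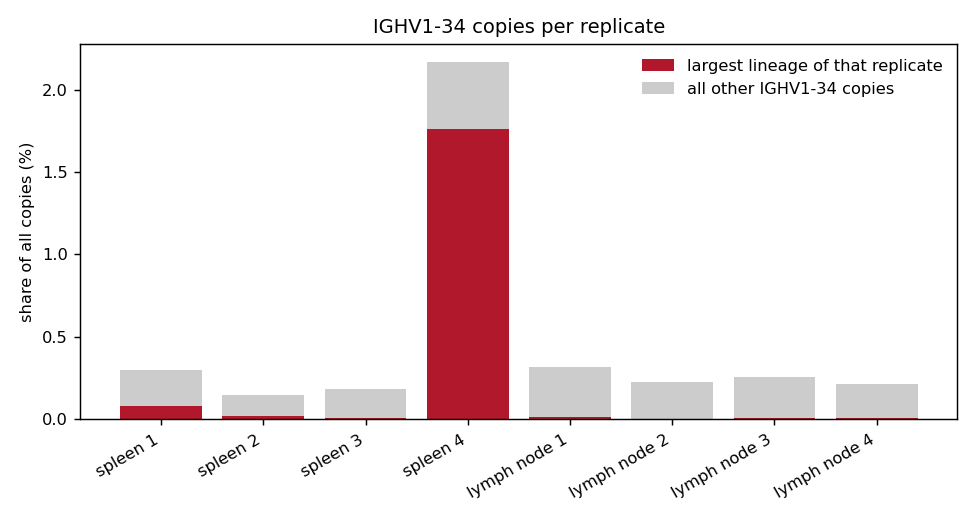
IGHV1-34 copies as a share of all copies (percent) in each spleen and lymph node replicate, with the largest lineage of that replicate in red and all other IGHV1-34 copies in grey. Spleen replicate 4 reaches 2.17%, of which 1.76% is 1 lineage, and the other replicates lie between 0.149% and 0.318%.

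Large lineages of the other members were of several classes. In spleen replicate 2, IGHV1-11 lineages of 383 and 206 copies held 50.3% and 27.1% of its copies, and 329 of the 383 were IgM. In spleen replicate 4 an IGHV1-11 lineage of 127 copies, 123 of them in 1 clonotype, held 34.9%, and in the control a lineage of 171 copies held 52.9%. All 4 of these lineages had a CDR3 of 8 residues. The 127-copy lineage had 0 IgM, 0 IgA and 1 IgG2 copies. IGHV1-11 in that replicate had 133 IgG3, 21 IgD and 1 IgG1 copies in all. The 206-copy lineage had 17 IgM, 75 IgA and 1 IgG2 copies, and IGHV1-11 there had 145 IgG3, 10 IgD and 1 IgG1 copies. By these counts, most IgG3 copies of IGHV1-11 in spleen replicates 2 and 4 lay in these 2 lineages. The IgG3 shares without the lineages were not tested. The largest IGHV1-20 lineage held 617 copies in spleen replicate 4, all IgA, and its next held 332 copies in lymph node replicate 2, of which 329 were IgG2. The largest IGHV1-36 lineage held 284 copies in spleen replicate 2, 283 of them IgA, with a mean mismatch of 7.25% of V bases. The largest IGHV1-37 lineage held 110 copies in spleen replicate 2, all IgM, with a mean mismatch of 0.198%. The largest IGHV1-21 lineage held only 11 copies.

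Junctions shared between replicates were few for all 6 genes. In at least 2 replicates were found 0.830% of the 4457 junctions of IGHV1-20, 0.893% of the 5039 of IGHV1-34, 0.833% of the 2760 of IGHV1-36 and 0.765% of the 1176 of IGHV1-37, and the other IGHV1 genes had a median of 1.10%. Of the 87 junctions found in exactly 1 spleen and 1 lymph node replicate, 77 had the same replicate number in both. The most widely shared outside IGHV1-11 was an IGHV1-20 junction with IGHJ4, found in spleen 2, 3 and 4, lymph node 3 and the control, with 67 copies, of which 65 were IgM. It is shown with capitals for the leading bases that match the end of the IGHV1-20 segment.
IGHV1-20 with IGHJ4: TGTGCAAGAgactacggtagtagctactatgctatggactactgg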

How the data were processed

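Per the labels' protocols, heavy-chain RNA was reverse-transcribed with molecular identifiers, extended with V gene primers and sequenced. The deposited tables list every distinct sequence, its gene assignments, junction and count, which the authors' headers do not define further, and V mismatches and aligned V length, a measurement of another kind than a count. Per the submitters' processing notes the build was mm10. No aligner is named in the labels or headers.

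The 2 technical libraries of a replicate were summed (26 libraries), with no filter on copies. V mutation was the mismatched percent of aligned V bases of each clonotype's most copied sequence, averaged over clonotypes. V gene usage was tested on clonotype counts with edgeR 4.0.16 (quasi-likelihood, TMM, 12 tissue replicates, 91 V genes). V mutation, CDR3 length and switched share were tested with limma 3.58.1 on values per V gene and replicate, minus that replicate's median V gene, for V genes with at least 10 clonotypes in each of 8 replicates. Adjustment was Benjamini-Hochberg over all V genes tested. DESeq2 1.42.0 was an alternative, in R 4.3.3. Steps were tested on simulated data. All 6 genes are named, with IGHV1-26, the 3 lowest IGHV1 genes and the nearest reference V sequence. Also named are the 2 V genes outside the 6 most alike in use (edgeR log2 CPM of clonotypes, prior count 2). The members and lists were chosen with earlier results of these data known. Reference V segments were taken from deposited sequences without mismatch.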

Additional observations from a re-analysis of the deposited data

Results flagged for a closer look

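Among 72 groups of 4 replicates (6 measures of the 6 genes in 2 tissues), 7 had a replicate that stood apart from the other 3 by Dixon's criterion. Chance flags about 5% of such groups. IGHV1-34 made up 2.17% of copies in spleen replicate 4, against 0.149% to 0.296% in the other spleens. IGHV1-11 made up 0.113% of copies in spleen replicate 1, against 0.0510% to 0.0559% in the other spleens, and 0.131% in lymph node replicate 1, against 0.0235% to 0.0342% in the other lymph nodes. IGHV1-11 had 0.634% of V bases mismatched in spleen replicate 2, against 0.174% to 0.210%. IGHV1-21 made up 0.105% of clonotypes in spleen replicate 1, from 27 clonotypes, against 0.0433% to 0.0524%. IGHV1-37 had 100% of clonotypes without a mismatch in lymph node replicate 1, from 7 clonotypes, against 77.8% to 79.5%. IGHV1-37 had a switched share of 3.33% in lymph node replicate 2, against 0% in the other lymph nodes.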

How the results depend on the processing

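The usage result for the 6 genes was stable in 1 respect: in 89 refits of a member none passed an adjusted p of 0.05. The number of V genes called between spleen and lymph node was 20, and became 34 with DESeq2, 0 with copies in place of clonotypes, 38 with spleen and lymph node samples only, 11 with a replicate block, and 6 to 31 with a replicate left out. The V genes called for mutation against the median numbered 59, and 22 with clonotypes of at least 2 copies. Those called for switched share numbered 11, and 36 with lineages, 25 against the IGHV1 median, and 1 to 29 with a replicate left out. Those called for mutation between tissues numbered 0, and 1 with lineages and 0 to 5 with a replicate left out. The cause of these moves was not tested.

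IGHV1-21 and IGHV1-11 kept their calls for mutation, and IGHV1-11 for CDR3 length, in all 13 alternatives of each. Signs turned only for values that had not passed, or for IGHV1-20. Some values passed only in an alternative. IGHV1-36 passed for mutation with lineages, without spleen replicate 1 and without spleen replicate 4 (limma adjusted p = 0.0137, 0.0434 and 0.0439), and IGHV1-34 without spleen replicate 3 (0.0373). IGHV1-20 passed for CDR3 length against the IGHV1 median, without spleen replicate 2 and without lymph node replicate 2 (0.0453, 0.0366 and 0.0322). With lineages the log2 usage change was 0.078 for IGHV1-20, 0.14 for IGHV1-36 and 0.21 for IGHV1-37. With a replicate left out it ran from -0.25 to 0.036 for IGHV1-20, from -0.30 to 0.076 for IGHV1-36 and from -0.31 to 0.13 for IGHV1-37. Against the IGHV1 median the mutation difference was -0.049 points for IGHV1-20 and -0.033 for IGHV1-36, and for IGHV1-20 it was 0.036 with clonotypes of at least 2 copies. The CDR3 difference of IGHV1-34 was 0.0021 with a minimum of 5 clonotypes, 0.039 with clonotypes as weights, 0.046 with lineages, 0.059 against the IGHV1 median and -0.046 to 0.048 with a replicate left out. For IGHV1-21 it was -0.045 with weights and -0.070 to 0.15 with a replicate left out. The switched difference of IGHV1-36 was 0.87 with weights, 0.060 with at least 2 copies and -1.94 to 0.72 with a replicate left out. With lineages, IGHV1-21 and IGHV1-34 passed for switched share (4.22 and 2.63 points, limma adjusted p = 0.0432 and 0.0147), as did IGHV1-21 without spleen replicate 1 (adjusted p = 0.0213). By copies the mean spleen share was 0.699% for IGHV1-34 and 0.0254% for IGHV1-21. The minimum of 5 and the lineage settings of the limma tests were chosen after seeing the data.

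Deviations in V gene use of same-numbered spleen and lymph node replicates correlated at 0.26, 0.17, 0.0076 and -0.17. Not every correlation was over 0.1, so the main tests were run without pairing, but such correlations cannot decide whether numbers pair samples. Of the 87 member junctions found in exactly 1 spleen and 1 lymph node, 77 had the same number in both, which links same-numbered samples. The labels do not say whether a number marks an animal. If it does, the main tests and the counts over 8 replicates treat linked samples as separate. Depth limits IGHV1-11, IGHV1-21 and IGHV1-37 most, with 7 to 27 clonotypes in replicate 1 of each tissue.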
